A study of Mus musculus with 56 samples.

Results

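The genes described are 9 members of the solute carrier family 22 (SLC22) in mouse liver RNA-seq, Slc22a3, Slc22a5, Slc22a7, Slc22a18, Slc22a23, Slc22a26, Slc22a27, Slc22a28 and Slc22a30. They were taken by name from a table of 23813 genes, with the first listed transcript for each gene, and are 9 of the 25 genes of the table named Slc22a followed by a number. The members had been chosen with their levels in the same 12 libraries known, so that their changes are given as a description. No p-value is printed for a member. Where members are said to pass thresholds or are counted by p, this places them among all genes and is no test of them.

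The libraries came from the livers of 12 male mice, 4 in each of 3 groups. Wild type (WT) mice were made hypothyroid by feeding chow low in iodine that held 0.15% propylthiouracil (PTU), an inhibitor of thyroid hormone synthesis, for 16 days. They were injected with vehicle on the last 4 to 6 days. Hyperthyroid WT mice received the same diet and 5 μg triiodothyronine (T3) by intraperitoneal injection on those days. Hypothyroid L-NCOR1ΔID mice were on the PTU diet without T3 and make, in the liver, a nuclear receptor corepressor 1 (NCOR1) that lacks the domains through which it binds the thyroid hormone receptor (TR). This line was kept on a mixed C57BL/6;129S background. The strain of the sequenced WT mice is not given in the sources used here. The study's list of animals has a lower mean age for L-NCOR1ΔID mice than for the PTU or the T3 group of WT mice, without saying which were sequenced, so that genotype, age and possibly strain cannot be told apart in the second comparison. All 3 groups share the PTU diet, both comparisons share the same 4 hypothyroid WT libraries, and no euthyroid group was analysed here.

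SLC22 proteins are carriers of the plasma membrane that move organic cations, organic anions and zwitterions such as carnitine, and in the liver they take drugs and metabolites up from the blood or let them out. OCT type carriers, such as the product of Slc22a3, transport organic cations, and OCTN type carriers, such as that of Slc22a5, take up carnitine, which fatty acids need to enter mitochondria. OAT type carriers transport organic anions. They include the product of Slc22a7, known as OAT2, and those of a cluster of related genes on chromosome 19 (Slc22a26 to Slc22a30) that rodents carry. In the classic view, TR without hormone recruits NCOR1 and represses its target genes, and T3 releases NCOR1.

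In mm9, the genome build of the deposited values, Slc22a26, Slc22a27, Slc22a28, Slc22a29 and Slc22a30 lie in this order on chromosome 19 from position 7855531 to 8479601, a span of 624 kb, and all are read from the minus strand. Intervals between neighbouring genes were 61723, 96181, 28182 and 72752 bp. The other members lie apart from them, Slc22a3 (chr17:12612838-12700570) and Slc22a7 (chr17:46569134-46575426) on chromosome 17, Slc22a5 at chr11:53678044-53705162, Slc22a23 at chr13:34271027-34437051 and Slc22a18 at chr7:150659626-150685239. Of these, Slc22a18 is on the plus strand and the other 4 are on the minus strand.

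The promoters of the chromosome 19 members are shown because 4 close relatives on 1 stretch of chromosome differed in how they changed with T3. Each runs from 250 bases before to 50 bases after the start site, in RefSeq on GRCm38.p6 and 5′ to 3′ on the minus strand. Coordinates on this build are chr19:7802618-7802917 for Slc22a26, chr19:7965978-7966277 for Slc22a27, chr19:8131933-8132232 for Slc22a28 and chr19:8405056-8405355 for Slc22a30. In Slc22a28 and Slc22a30 capitals mark the bases that differ between them, in Slc22a27 a match to AGGTCA on the opposite strand, the hexamer that TR and related receptors bind, and in Slc22a26 a match to TTC and GAA with 3 bases between them, the letters that STAT5 binds.
Slc22a26: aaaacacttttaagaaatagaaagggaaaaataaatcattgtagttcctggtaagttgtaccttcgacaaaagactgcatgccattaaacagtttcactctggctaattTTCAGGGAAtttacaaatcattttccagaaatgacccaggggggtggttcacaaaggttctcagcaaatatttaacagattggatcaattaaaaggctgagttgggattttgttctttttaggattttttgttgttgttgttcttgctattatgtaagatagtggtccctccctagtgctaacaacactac
Slc22a27: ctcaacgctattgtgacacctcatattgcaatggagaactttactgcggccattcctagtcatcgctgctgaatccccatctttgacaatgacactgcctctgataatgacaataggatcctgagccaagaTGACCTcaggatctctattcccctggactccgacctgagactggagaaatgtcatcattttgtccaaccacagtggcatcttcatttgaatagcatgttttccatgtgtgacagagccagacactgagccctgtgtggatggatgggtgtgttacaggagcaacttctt
Slc22a28: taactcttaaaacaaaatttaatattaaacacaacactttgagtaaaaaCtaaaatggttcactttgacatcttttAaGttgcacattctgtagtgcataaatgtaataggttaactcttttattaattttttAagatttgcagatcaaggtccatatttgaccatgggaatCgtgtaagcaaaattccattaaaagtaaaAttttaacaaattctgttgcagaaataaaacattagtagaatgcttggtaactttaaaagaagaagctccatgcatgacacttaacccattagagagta
Slc22a30: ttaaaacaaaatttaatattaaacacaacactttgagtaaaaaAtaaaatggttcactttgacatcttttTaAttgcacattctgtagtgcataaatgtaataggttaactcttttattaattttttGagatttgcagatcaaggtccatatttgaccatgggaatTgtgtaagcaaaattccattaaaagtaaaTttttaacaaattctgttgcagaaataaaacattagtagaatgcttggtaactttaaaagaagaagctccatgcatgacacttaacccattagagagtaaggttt

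The windows of Slc22a28 and Slc22a30 were near copies. They shared 294 aligned bases, offset by 6 bases, with 6 mismatches and 0 gaps, an identity of 98.0%. Their G and C content was 28.3% and 27.7%, with 1 and 0 CpG, below the median of 52.7% and 7 CpG over 32851 promoters of the same length. Slc22a5 and Slc22a23 had windows rich in CpG, with 34 and 38. RefSeq windows were found for 8 of the 9 members, and no window of Slc22a7 was used.

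Motifs were searched as exact letters on both strands. AGGTCA was found once, in Slc22a27 from base -119, and in 16.3% of all promoters. The RefSeq window of Slc22a29, which is not a member and also rose with T3, held 0 matches to AGGTCA. That window is not at the mm9 start site used here for Slc22a29. The shift between builds at the other cluster genes places it inside the gene, so it does not bear on that start site. Whether the match in Slc22a27 bears on its response to T3 was not tested. The STAT5 type letters were found once, in Slc22a26 from base -141, and in 8.30% of all promoters. Direct repeats of AGGTCA with 4 bases between (DR4, the classic TR site) and with 1 base between (DR1), and GTTAAT and ATTAAC with 1 base between (the HNF1 type), were found in 0 of the 8 windows, and in 0.0152%, 0.0396% and 0.00913% of all promoters. Each AGGTCA repeat also counts as AGGTCA.

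Proteins of the cluster were alike. Residues were compared in the reading frames of GENCODE M1 transcripts, as identical residues over all aligned columns. The products of Slc22a28 and Slc22a30, both of 552 residues, were 97.8% identical, and those of Slc22a27 and Slc22a29, both of 551 residues, 95.3%. Over the 10 pairs within the cluster identity ranged from 60.5% to 97.8%, with Slc22a26 the most distant. Between the cluster and the other 5 members it was 16.6% to 31.6%, and among those 5 it was 15.9% to 31.9%.

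**Figure D1:**
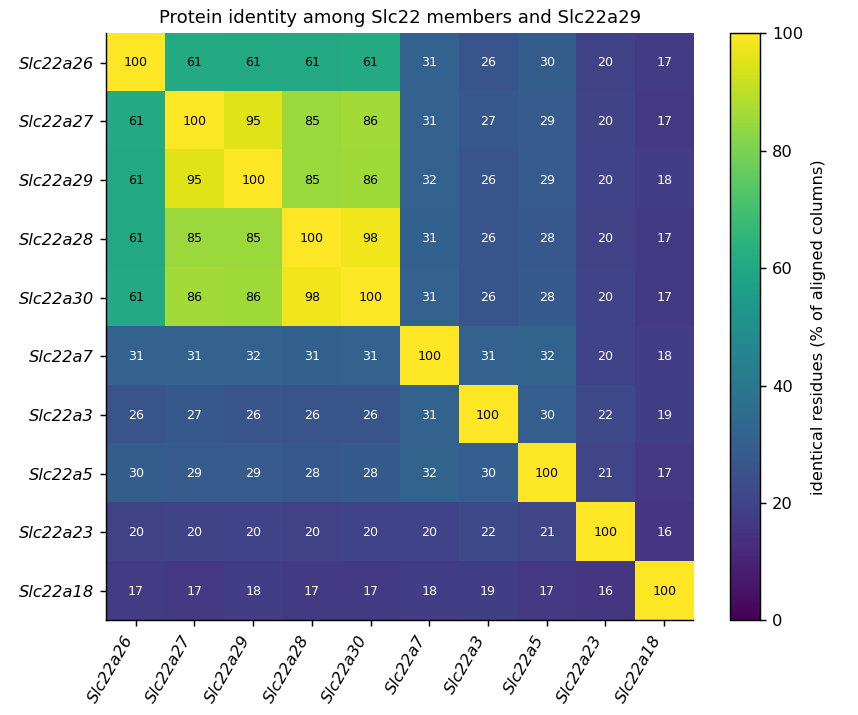
Identical residues, in percent of aligned columns, between the proteins of the 9 members and Slc22a29, each row and column being 1 gene. The 5 genes of the chromosome 19 cluster form a block of 60.5% to 97.8%, and all other pairs are at or below 31.9%.

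This likeness bears on how reads are assigned. Of the 50-base windows of the Slc22a28 transcript, 53.3% occur letter by letter in a transcript of Slc22a30, and 47.2% of those of Slc22a30 occur in Slc22a28. For Slc22a27, 25.8% of windows occur in Slc22a29. Slc22a26 shared 0% with the other Slc22 genes compared. The study kept reads that aligned at a single place, so that levels of Slc22a27, Slc22a28, Slc22a29 and Slc22a30 rest on the stretches in which they differ and may be understated.

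Values are RPKM, reads per kilobase of transcript scaled to the number of aligned reads, which take transcript length into account. Summed RPKM was 491073 to 529372 per library. The step between the lowest values gave relative depths of 0.683 to 1.36 (hypothyroid WT replicate 1 as 1), lowest in hyperthyroid mice (0.683 to 0.832), and the read totals that the study lists for its libraries were not used here. T3 raised the known targets Thrsp, from 322 ± 128 to 1597 ± 652 RPKM (SD, n = 4 each), and Dio1, from 18.5 ± 26.3 to 544 ± 74.7. Ncor1 was 14.7 ± 0.665 in hypothyroid WT and 12.97 ± 0.844 in L-NCOR1ΔID mice (log2 fold change -0.18 ± 0.07, adjusted p = 0.204 in limma). Its RPKM is for the whole transcript and does not test whether the domains are missing.

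In every library hepatocyte transcripts dominated, with Alb at 11609 to 37284 RPKM. Kidney tubule markers, of interest because several SLC22 carriers are abundant in kidney, summed to at most 0.134 RPKM over 5 genes, with Kap and Slc12a1 at 0 in all 12 libraries. Of 8 Kupffer and leukocyte markers, 6 were in the table, 4 of 6 rose with T3 (Clec4f, Adgre1, Marco and Ptprc) and none fell. Their sum was 16.7 to 22.9 RPKM in hypothyroid WT, 60.5 to 99.6 in hyperthyroid WT and 18.4 to 54.4 in L-NCOR1ΔID mice. With T3, Alb and Ttr fell of 6 hepatocyte markers, Krt7 rose of 4 cholangiocyte and Lyve1 of 5 endothelial markers, and 0 of 5 stellate, 0 of 2 erythroid and 0 of 4 sex-linked genes tested passed. In L-NCOR1ΔID mice none of these markers passed. Over all genes tested, 8.28% rose and 3.47% fell with T3, and 0.725% rose and 0.544% fell in L-NCOR1ΔID mice. The part of other cell types in the members' changes was not tested, and in whole liver fewer cells of a type and less RNA per cell cannot be told apart.

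Levels of the 9 members differed widely. In hypothyroid WT mice Slc22a18 was highest at 67.5 ± 1.32 RPKM, followed by Slc22a30 at 54.7 ± 6.32 and Slc22a23 at 15.3 ± 0.802. Slc22a7 at 12.2 ± 14.1 overlapped in range with Slc22a23 above it and with Slc22a28 (5.80 ± 1.08) below it, and Slc22a28 overlapped with Slc22a5 (5.09 ± 0.991). Slc22a3 (1.33 ± 0.187), Slc22a26 (0.422 ± 0.260) and Slc22a27 (0.0785 ± 0.0129) followed without overlap. In hyperthyroid mice Slc22a7 came first and stood apart from all others at 238 ± 67.4 RPKM. In L-NCOR1ΔID mice Slc22a18 (76.3 ± 13.6) and Slc22a30 (40.7 ± 19.4) came first with overlapping ranges, Slc22a7 had the fifth place at 2.58 ± 2.67, and apart from the step from Slc22a23 to Slc22a5 every neighbouring pair overlapped.

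With T3, the anion carriers Slc22a7 and Slc22a27 and the carnitine carrier Slc22a5 were higher, and Slc22a26 and Slc22a28 were lower, past both thresholds (adjusted p under 0.01 in limma, log2 fold change over 1 in either direction). These are 3 members higher and 2 lower of 9 tested, against 8.28% of all 13941 genes tested higher (1155) and 3.47% lower (484). Every hyperthyroid library lay above every hypothyroid WT library for 3 members (all genes 35.8%) and below for 4 members (all genes 10.8%). The members were picked from this contrast, so nothing is read from these shares, and Slc22a27 passed the filter on low values only through the hyperthyroid libraries. Leaving out 1 library changed the lower calls. Without hypothyroid replicate 1, 2 or 4 or hyperthyroid replicate 2 neither passed, without hypothyroid replicate 3 only Slc22a26 did, and without hyperthyroid replicate 1, 3 or 4 only Slc22a28 did. Without any 1 of the hyperthyroid libraries Slc22a27 could not pass the filter, which asks for 0.1 RPKM in 4 libraries, and 2 members were higher. The median log2 fold change was 0.35 over the members and 0.23 over all genes tested. When libraries were scaled by the median of gene ratios the median of all genes was 0.03, 786 genes were higher and 650 lower, every member kept its direction, and Slc22a5 no longer passed (0.98 ± 0.18).

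**Figure D2:**
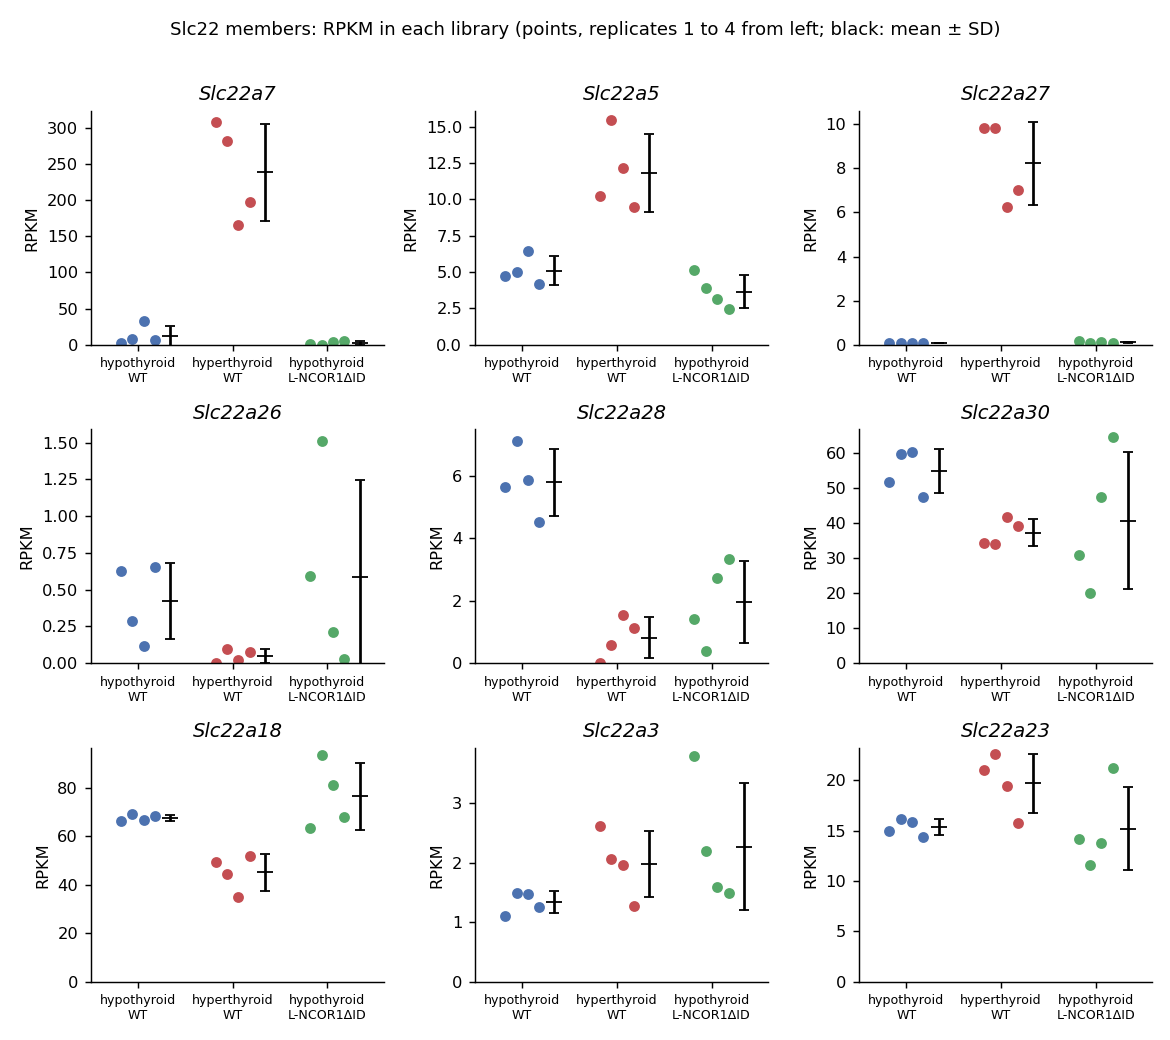
RPKM of each member in each library (points, 4 per group, replicate 1 at the left of each group), with the group mean ± SD in black, each panel on its own scale from 0. Slc22a7, Slc22a5 and Slc22a27 are higher in all 4 hyperthyroid livers than in any hypothyroid WT liver, and Slc22a26, Slc22a28, Slc22a30 and Slc22a18 are lower.

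Slc22a7 had the largest level after T3. Its RPKM in hypothyroid WT replicates 1 to 4 was 2.27, 7.55, 33.1 and 5.89, and in hyperthyroid WT it was 308, 282, 166 and 197. The lowest hyperthyroid liver was above the highest hypothyroid liver, and the group means differed 19.5-fold, with a fitted log2 fold change of 4.90 ± 0.66 (SE). Hypothyroid replicate 3 stood above the other 3, and without it the log2 fold change was 5.60 ± 0.39. The share of Slc22a7 in the summed RPKM of the 9 members was 1.54% to 17.4% in hypothyroid WT livers and 58.5% to 70.7% in hyperthyroid ones, while the sum moved from 163 ± 20.4 to 363 ± 71.6 RPKM.

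Slc22a7 was compared with Dio1, the deiodinase 1 gene and a sensitive target of T3, library by library. Hypothyroid WT replicate 3, the highest of its group for Slc22a7, had Dio1 at 57.7 RPKM, and the other 3 had 0.719, 6.64 and 8.98. In L-NCOR1ΔID mice Slc22a7 was 0.503, 0.249, 3.80 and 5.76, and Dio1 was 0.567, 0.591, 20.9 and 12.1. Replicates 3 and 4 were high for both genes, and replicates 1 and 2 low for both. Over the 8 hypothyroid libraries r was 0.89 on log2(RPKM + 0.1), given as a description, since libraries share their group and depth. For Thrsp, the other T3 target, r with Slc22a7 over these 8 libraries was -0.26.

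**Figure D3:**
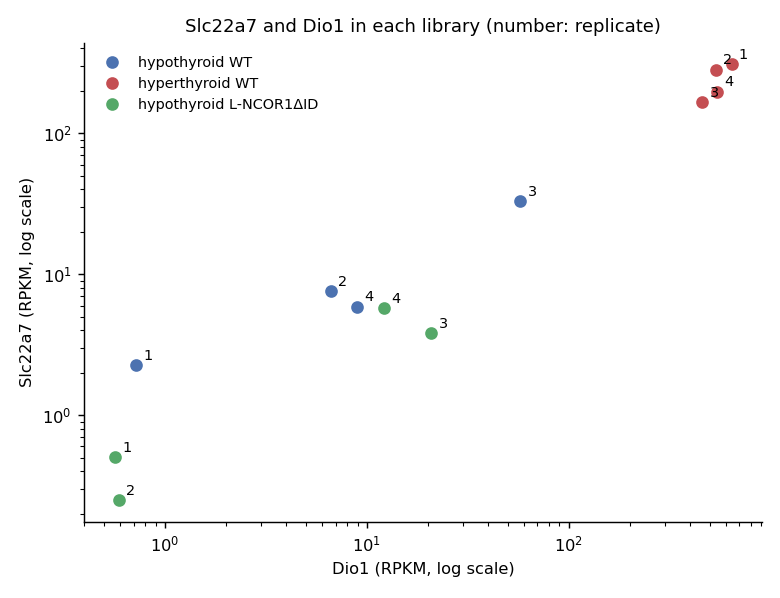
Slc22a7 against Dio1, both in RPKM on log axes, 1 point per library with its replicate number. The 4 hyperthyroid livers sit at 166 to 308 RPKM of Slc22a7, and in the hypothyroid groups libraries high in Dio1 tend to be high in Slc22a7, though the order is not the same for both genes.

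Slc22a5 encodes OCTN2, the carrier through which cells take up carnitine. It was 4.74, 4.98, 6.49 and 4.16 RPKM in hypothyroid WT and 10.3, 15.4, 12.2 and 9.47 in hyperthyroid mice. The groups did not overlap, the means differed 2.32-fold, and the log2 fold change was 1.19 ± 0.18. Of the 13 genes of a list on the carnitine shuttle, carnitine synthesis and fatty acid oxidation, 12 were tested. With T3 none passed upwards (all genes 8.28%) and 1 passed downwards (all genes 3.47%). That gene was Acadm, a dehydrogenase of medium chain fatty acids, which fell from 196 ± 25.9 to 80.7 ± 7.09 RPKM (log2 fold change -1.27 ± 0.11, adjusted p = 3.39e-05). All 12 had a median log2 fold change of 0.04, below that of all genes.

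Slc22a5 has a relative on the same chromosome, Slc22a4, which encodes the ergothioneine carrier OCTN1 and is not a member. Slc22a4 rose from 1.31 ± 0.486 to 3.41 ± 0.165 RPKM with T3 (log2 fold change 1.38 ± 0.23, adjusted p = 0.00118), and all 4 hyperthyroid livers were above all 4 hypothyroid ones.

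In the chromosome 19 cluster the direction alternated from gene to gene. Slc22a26, Slc22a28 and Slc22a30 were lower in all 4 hyperthyroid livers than in any hypothyroid WT liver, and Slc22a27 and Slc22a29, which lie between them, were higher in all 4. The sum of the 5 genes was 61.1 ± 7.03 RPKM in hypothyroid and 48.0 ± 2.20 in hyperthyroid mice. Slc22a27 and Slc22a29 made up 0.131% to 0.280% of it before T3 and 14.9% to 26.0% after.

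**Figure D4:**
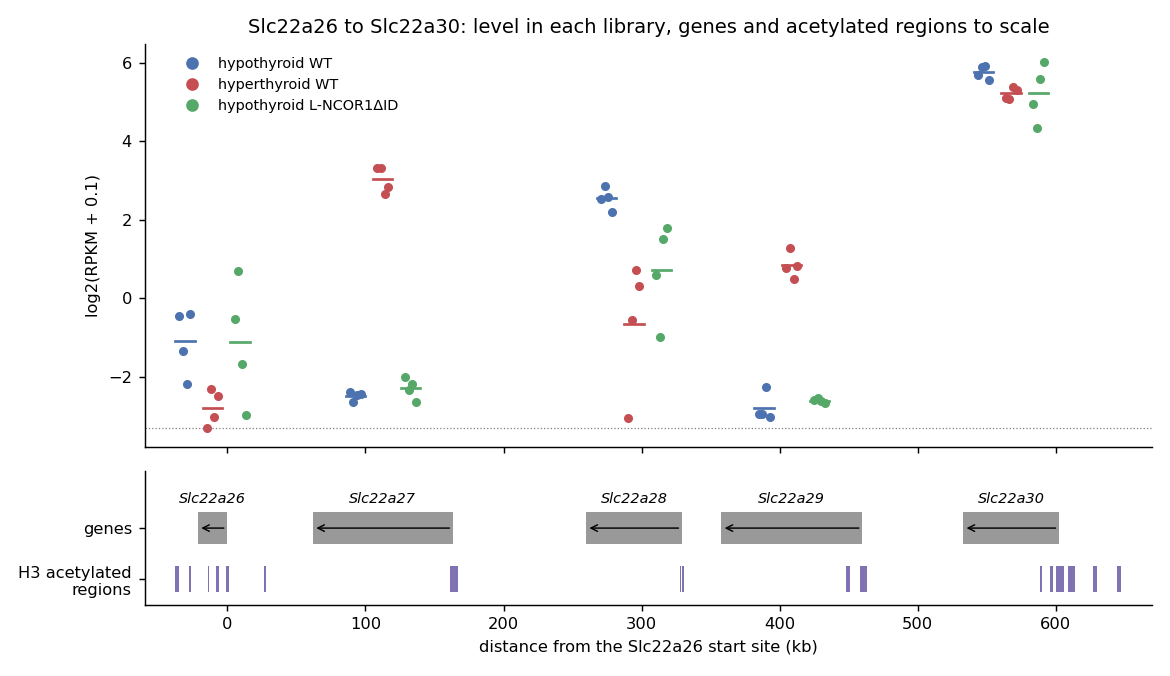
The cluster from Slc22a26 to Slc22a30 by distance from the Slc22a26 start site in kb. Above, log2(RPKM + 0.1) in each library (points) with the group mean (bar), the dotted line marking 0 RPKM, and below, the genes (arrows show the direction of transcription) and H3 acetylated regions, to scale. Slc22a27 and Slc22a29 are high only in the hyperthyroid libraries, and their neighbours are lower there.

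Slc22a27 was almost silent without T3. It was 0.089, 0.06, 0.08 and 0.085 RPKM in hypothyroid WT mice and 9.83, 9.82, 6.24 and 7.001 in hyperthyroid mice. The fitted log2 fold change, 5.52 ± 0.17 on log2(RPKM + 0.1), depends on the pseudocount, with 3.07 for 1 and 6.52 for 0.01. It understates the 105-fold ratio of the means, since hypothyroid values lie below the pseudocount. Slc22a29, its near copy and not a member, rose from 0.0463 ± 0.0399 to 1.72 ± 0.421 RPKM (log2 fold change 3.64 ± 0.23). Of the hypothyroid WT libraries only replicate 3 reached 0.1 RPKM, so Slc22a29 passed the filter mainly through the hyperthyroid libraries. No p-value is given for it. It was at 16.3% to 23.7% of Slc22a27 in the hyperthyroid livers.

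Slc22a28 moved the other way. It was 5.65, 7.14, 5.89 and 4.51 RPKM in hypothyroid WT and 0.02, 0.578, 1.55 and 1.13 in hyperthyroid mice, a 7.07-fold lower mean and a log2 fold change of -3.19 ± 0.70. No hyperthyroid liver reached the lowest hypothyroid one. Hyperthyroid replicate 1 was far below the other 3, and without it the log2 fold change was -2.39 ± 0.29. With a pseudocount of 1 it was -1.97. Slc22a30, with an almost identical promoter window and protein, was 51.7, 59.7, 60.2 and 47.3 RPKM before and 34.4, 33.9, 41.5 and 39.1 after T3, a log2 fold change of -0.55 ± 0.10 that does not reach 1 in size. Slc22a28 thus stood at 9.54% to 11.9% of Slc22a30 in hypothyroid WT livers and at 0.0582% to 3.73% in hyperthyroid livers. In hyperthyroid replicate 1 Slc22a28 was 0.02 RPKM beside 34.4 RPKM of Slc22a30.

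Slc22a26 was low throughout. It was 0.624, 0.29, 0.12 and 0.654 RPKM in hypothyroid WT and 0, 0.1, 0.023 and 0.077 in hyperthyroid mice, with a log2 fold change of -1.69 ± 0.42. The groups did not overlap, but the gap was small, from 0.1 to 0.12 RPKM, and the value changes with the pseudocount (-0.42 with 1 and -3.09 with 0.01). It passed the thresholds, and under most other settings it was no longer among the genes called. Slc22a28 kept its call with all libraries except under a pseudocount of 0.01.

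Slc22a18, a gene of the imprinted domain around Kcnq1 on chromosome 7 whose product is related to organic cation carriers, was steady among hypothyroid WT livers at 66.2, 68.9, 66.6 and 68.3 RPKM. With T3 it was 49.3, 44.4, 34.7 and 51.8, below the hypothyroid livers in all 4, with a log2 fold change of -0.60 ± 0.12, under the size threshold. Of 11 genes in its neighbourhood, 10 were tested, and with T3 1 rose (all genes 8.28%) and 1 fell (all genes 3.47%). Osbpl5, which encodes a lipid transfer protein, fell from 2.38 ± 0.383 to 0.573 ± 0.0691 RPKM (adjusted p = 2.78e-05). Kcnq1, a potassium channel gene named here after its value was seen, rose from 0.245 ± 0.0410 to 0.617 ± 0.0601 RPKM (adjusted p = 0.000646).

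Slc22a3 and Slc22a23 did not pass. Slc22a3, the OCT3 gene of the imprinted Igf2r domain, was 1.11, 1.49, 1.48 and 1.26 RPKM in hypothyroid WT and 2.62, 2.06, 1.96 and 1.27 in hyperthyroid mice, overlapping through replicate 4 (log2 fold change 0.50 ± 0.21). Of 6 genes around it, 4 were tested and none passed in either direction. Slc22a23, a carrier with no known substrate, was 15.0, 16.1, 15.9 and 14.4 RPKM before and 21.0, 22.6, 19.4 and 15.8 after T3 (log2 fold change 0.35 ± 0.11).

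Over the whole family 25 genes were in the table and 15 were tested with T3. Of these, 5 were higher and 2 lower past the thresholds, beside 8.28% and 3.47% of all genes. All called genes except Slc22a4 and Slc22a29 are members chosen with these values known. Slc22a27 passed the filter only, and Slc22a29 mainly, through the hyperthyroid libraries, so nothing is read from these shares. The lower count was 0 without hypothyroid replicate 1 or 4 or hyperthyroid replicate 2, and 1 without hypothyroid replicate 2 or 3 or hyperthyroid replicate 1 or 4. Slc22a15, a carrier related to the OCTN type, was lower in all 4 hyperthyroid livers, at 0.695 ± 0.146 against 1.41 ± 0.164 RPKM (log2 fold change -0.93 ± 0.16, adjusted p = 0.00145), under the size threshold. With libraries scaled by the median of gene ratios it passed (-1.13 ± 0.14), and 3 family genes were lower. The kidney carriers Slc22a6, Slc22a8 and Slc22a12, known for renal transport, stayed at or below 0.172 RPKM in every library.

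In hypothyroid L-NCOR1ΔID mice none of the members passed the thresholds (adjusted p under 0.01 in limma). Of 8 members tested, 0 were called, beside 0.725% of 13790 genes higher (100) and 0.544% lower (75), and 4 had an unadjusted p under 0.05, beside 20.5% of all genes. Since these values were known when the members were chosen, nothing is read from these counts. Slc22a27, below 0.15 RPKM in these mice, was not tested. Of the members, 0 were higher in every mutant liver than in every hypothyroid WT liver (all genes 7.78%) and 1, Slc22a28, was lower in every mutant liver (all genes 5.36%). Over all genes, leaving out a WT library left 38 to 56 higher and 28 to 33 lower, and leaving out mutant replicate 1, 2 or 3 left 44, 56 and 36 higher. Without mutant replicate 3, 38 were lower, and the members stayed at 0 each time. The median log2 fold change was -0.27 over the members tested and 0.03 over all genes.

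Slc22a28 was 1.41, 0.407, 2.74 and 3.33 RPKM in L-NCOR1ΔID mice, all below the lowest hypothyroid WT liver at 4.51, with a log2 fold change of -1.82 ± 0.52. Its ratio to Slc22a30 was 2.03% to 5.77%, also below every hypothyroid WT value, and overlapped with the 0.0582% to 3.73% of hyperthyroid livers. The T3 values of this gene, 0.02 to 1.55 RPKM, overlapped with those of the mutants. Slc22a30 was spread widely among the mutants, at 30.7, 20.1, 47.5 and 64.4 RPKM (log2 fold change -0.55 ± 0.31), and replicate 4 was above all WT livers.

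For the 3 members called higher with T3, values in L-NCOR1ΔID mice overlapped with those in hypothyroid WT. Slc22a7 had a log2 fold change of -2.39 ± 1.04, which was -1.69 without WT replicate 3 or without mutant replicate 2 and -3.05 without mutant replicate 4. Slc22a5 was 5.11, 3.88, 3.14 and 2.49 RPKM (-0.50 ± 0.22, overlapping through replicate 1). Slc22a27 was 0.149, 0.098, 0.12 and 0.06 RPKM, and it was not tested. Of the mutant livers, 3 of 4 were above the highest hypothyroid WT liver at 0.089, and the other was at the lowest hypothyroid WT value. By comparison Thrsp was 844 ± 294 RPKM in these mice (log2 fold change 1.39 ± 0.34, adjusted p = 0.0542).

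**Figure D5:**
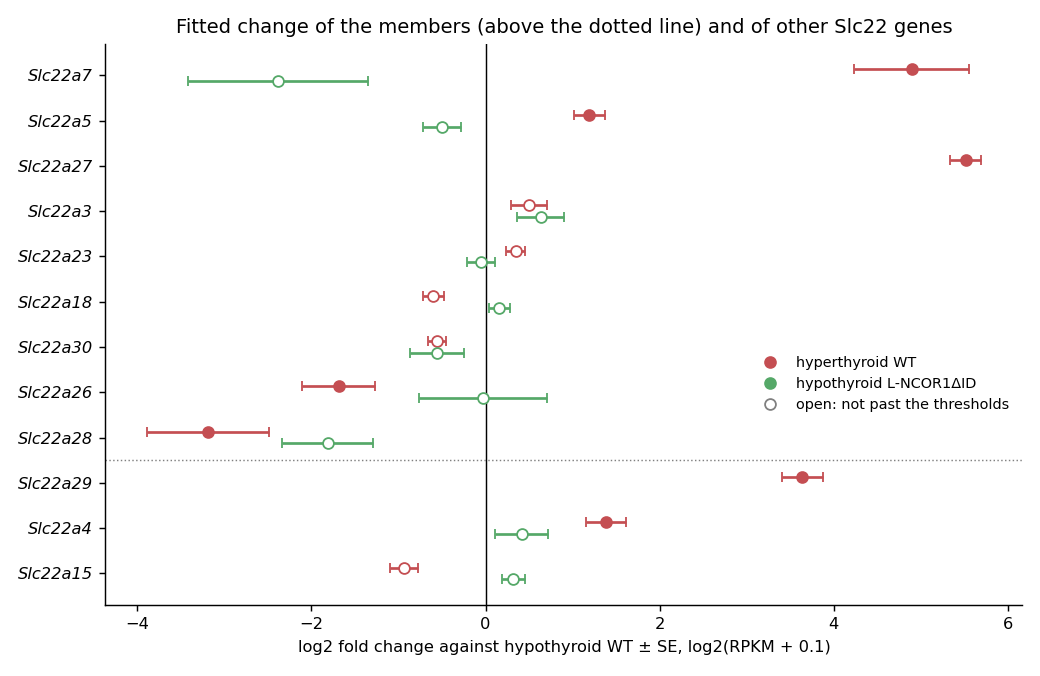
Log2 fold change against hypothyroid WT with its standard error for each member and for Slc22a29, Slc22a4 and Slc22a15, in hyperthyroid WT (red) and hypothyroid L-NCOR1ΔID mice (green), on log2(RPKM + 0.1). Filled points passed the thresholds, all of them with T3, Slc22a27 and Slc22a29 were not tested in L-NCOR1ΔID mice, and both comparisons share the hypothyroid WT libraries.

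The remaining members overlapped with WT. Slc22a3 was 3.79, 2.19, 1.59 and 1.48 RPKM (log2 fold change 0.63 ± 0.27), with replicate 1 the highest of all 12 libraries. Slc22a18 was 63.3, 93.4, 80.9 and 67.7 RPKM (0.16 ± 0.12), more spread out than in WT. Slc22a23 was 14.2, 11.6, 13.8 and 21.2 RPKM (-0.05 ± 0.16), and Slc22a26 was 0.59, 1.51, 0.211 and 0.026 RPKM (-0.03 ± 0.74), with replicate 4 far below replicate 2. Of the 25 family genes, 13 were tested in this comparison and 0 passed, 5 with an unadjusted p under 0.05. Slc22a15 was the gene higher in every mutant liver, at 1.78 ± 0.192 RPKM (0.32 ± 0.13, adjusted p = 0.199).

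Genes most like each member were found by Pearson correlation of log2(RPKM + 0.1) over 12 libraries among 10663 genes with a mean of at least 1 RPKM. For Slc22a30 they were Hsd3b5 (r = 0.97), a steroid dehydrogenase gene expressed in male liver, and the anion carrier gene Slco1a1 (0.96), and their deviations from the group means went with those of Slc22a30 as closely (0.97 each). Hsd3b5 was 85.1 ± 22.9, 30.9 ± 18.7 and 46.7 ± 50.2 RPKM in hypothyroid WT, hyperthyroid WT and L-NCOR1ΔID mice. For Slc22a28 they were Glyat (0.93), which conjugates acyl groups to glycine, and Fabp2 (0.93), a fatty acid binding protein gene. For Slc22a7 they were Mup19 (0.99), of a family of near copies, and Prpf18 (0.99). For Slc22a27 they were the riboflavin kinase gene Rfk (0.99) and the phosphate carrier gene Slc34a2 (0.99), with deviations within groups less alike (0.53 and 0.77).

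Slc22a5 was most like Bdp1 and Cldnd1 (0.97 each), Slc22a18 most like Tk1 and Apol9b (0.97 each), Slc22a23 most like Rnf115 (0.97) and Fam199x (0.94), and Slc22a3 most like Pcsk6 (0.87) and Camk2b (0.85). The 12 points share 3 groups and their depth, so that r follows group differences in the first place.

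Other carriers of hepatocytes moved in both directions with T3. Of 20 tested, 3 rose (all genes 8.28%) and 1 fell (all genes 3.47%). Over the 20 the median log2 fold change was -0.23, beside 0.23 over all genes. Abcb11, the bile salt export pump, rose from 82.5 ± 15.2 to 208 ± 52.9 RPKM (log2 fold change 1.32 ± 0.19, adjusted p = 0.000522), the phospholipid pump gene Abcb4 from 40.2 ± 8.94 to 107 ± 15.4 (1.42 ± 0.16, adjusted p = 0.000171), and the organic solute transporter subunit gene Slc51b from 0.243 ± 0.180 to 4.03 ± 2.09 (3.63 ± 0.58, adjusted p = 0.00104). Abcc3, an efflux pump of the blood side of the hepatocyte, fell from 135 ± 24.6 to 4.43 ± 1.23 RPKM (-4.92 ± 0.21, adjusted p = 2.38e-06). In L-NCOR1ΔID mice 1 of 20 rose (all genes 0.725%) and none fell (all genes 0.544%). It was Slco1a4, an uptake carrier of organic anions, at 42.6 ± 7.28 against 15.5 ± 4.18 RPKM (1.48 ± 0.19, adjusted p = 0.00379).

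Regulators known to act on transporter genes were followed as a list of 18, all tested. With T3 4 rose (all genes 8.28%) and 2 fell (all genes 3.47%). Over the 18 the median log2 fold change was -0.04, beside 0.23 over all genes. Stat5a rose from 1.504 ± 0.441 to 15.8 ± 0.836 RPKM (log2 fold change 3.34 ± 0.17, adjusted p = 4.07e-06) and Stat5b from 7.89 ± 0.988 to 26.9 ± 2.96 (1.76 ± 0.11, adjusted p = 9.95e-06), both mediators of growth hormone signalling. The growth hormone receptor gene Ghr, on the same list, went the other way, from 214 ± 11.7 to 109 ± 12.4 RPKM (-0.98 ± 0.09, adjusted p = 6.68e-05). Socs2 went from 2.64 ± 0.471 to 1.72 ± 0.392 (-0.60 ± 0.18, adjusted p = 0.0224). Both were lower in every hyperthyroid liver, and neither passed both thresholds. Stat5b, Ghr, Socs2 and Nr0b2 are named after their values were seen. The estrogen receptor gene Esr1 rose from 1.75 ± 0.466 to 9.73 ± 3.88 RPKM (2.37 ± 0.28, adjusted p = 0.000187), and Cux2, which in liver is known as a female-biased repressor, from 0.108 ± 0.0513 to 1.95 ± 1.05 (3.20 ± 0.34, adjusted p = 0.000111). Nr1i3, the gene of the xenobiotic receptor CAR, fell from 173 ± 25.5 to 44.4 ± 8.81 (-1.97 ± 0.15, adjusted p = 2.34e-05), and Nr0b2, the SHP gene, from 31.7 ± 3.21 to 15.1 ± 4.59 (-1.11 ± 0.21, adjusted p = 0.00251). In L-NCOR1ΔID mice 2 of 18 fell (all genes 0.544%) and none rose (all genes 0.725%). They were Nr1i3, at 81.7 ± 6.06 RPKM (-1.07 ± 0.11, adjusted p = 0.00145), and the bile acid receptor gene Nr1h4, at 39.3 ± 1.59 against 60.6 ± 1.72 RPKM (-0.62 ± 0.06, adjusted p = 0.000876). Whether any of these bears on the SLC22 genes was not tested.

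Acetylation of histone H3 at lysine 27 or 9 marks active promoters and enhancers, and the study lists 37200 regions that carry either mark in liver, merged over both marks and over hypothyroid and hyperthyroid WT mice. The start sites of all 9 members lay in such a region, as did 86.1% of those of the 12215 tested genes with a position. Slc22a7 lay in the longest of them, a region of 38018 bp (chr17:46563046-46601063) that covered the whole gene. Slc22a27, low without T3, had its start in a region of 6220 bp (chr19:8038107-8044326) and no other region within 100 kb. At the same distance Slc22a28 and Slc22a29 had 2, Slc22a3 2, Slc22a18 and Slc22a26 6, Slc22a30 7, Slc22a23 8, Slc22a7 9 and Slc22a5 14, and the median over all tested genes was 7. Along the 624 kb of the cluster lay 12 regions with a summed length of 33409 bp, or 5.35% of the length of the cluster. The last region is counted in full though it runs past the Slc22a30 start site, so that the share covered is lower. The list gives no acetylation level, so that whether these regions changed with T3 was not tested here. The study itself tested its acetylated regions for change with T3, and its values for them were not used here.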

How the data were processed

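Liver poly(A) RNA of 12 mice was sequenced, 1 library per mouse, with runs from 2 instruments for each sample. Per the study's methods, the authors aligned reads to mm9 with STAR and quantified RefSeq transcripts with HOMER, and they deposited RPKM values for each library. DESeq2 is also named in the submitters' processing notes and was not used here. Reads aligned at a single place were kept, per the study's supplement. Strand use in counting is not given in the sources used here. The authors also deposited a list of acetylated regions, merged over marks and conditions.

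From 31370 transcripts, the first listed for each gene was kept (23813 genes, 4272 of them with several transcripts). A transcript without a gene name held 0.000785% of summed RPKM and was left out. Genes that reached 0.1 RPKM in 4 or more of the 8 libraries of a comparison were tested on log2(RPKM + 0.1) with limma 3.58.1 (R 4.3.3, variance trend), with Benjamini-Hochberg adjustment over all genes tested. Fold changes on this scale understate those of low genes. Only the groups compared entered each fit. Thresholds were an adjusted p under 0.01 and, with T3, a log2 fold change over 1 in size. Values after ± are SD over 4 mice for RPKM and SE for log2 fold changes. On simulated data for the T3 comparison (13941 genes), 90.5% of 200 genes changed by 2 (log2) were recovered and 2 unchanged genes were called. The simulated noise was normal, independent between libraries and without a floor at 0 RPKM. It therefore does not show how the fit behaves for genes near the floor or with effects shared by a library.

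The members and the gene lists were chosen with earlier results of these data known. Named besides the members were Slc22 genes reaching 1 RPKM in a group mean, up to 4 called genes for each list and comparison that reach 1 RPKM, the 2 genes most like each member that reaches 1 RPKM, and Ncor1, Thrsp and Dio1. A gene that this rule names is not reported here. Alternatives were other pseudocounts, filters, scaling, transcripts, thresholds and fits, a replicate block, and each library left out. Proteins were translated from GENCODE M1 and aligned with Biopython 1.88 (BLOSUM62). Promoters are those of RefSeq on GRCm38.p6, and all gene and region positions are on mm9.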

Additional observations from a re-analysis of the deposited data

Results flagged for a closer look

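In hypothyroid WT replicate 3, Slc22a29 was 0.106 RPKM while the other 3 livers of the group were 0.028, 0.028 and 0.023. The gap to the nearest value was 0.923 of the range of the group, above the 95% critical value of Dixon's test for 4 samples. It was 1 of 39 groups looked at, over genes of the family, and chance alone gives about 1 in 20. This library was also the highest of its group for Slc22a7 and Dio1.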

How the results depend on the processing

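With T3, a pseudocount of 1 left 575 genes higher and 319 lower. The members lower numbered 1 (Slc22a28) with a pseudocount of 1, no filter, no variance trend, the replicate block, a fit of all 12 libraries together or a minimum mean of 1 RPKM, and 0 with a pseudocount of 0.01. The family genes lower numbered 1 under the same settings, Slc22a28 except with a pseudocount of 0.01, where it was Slc22a15. In L-NCOR1ΔID mice, 20 genes were higher and 25 lower with the replicate block, 63 were higher with no variance trend, 118 were lower with all 12 libraries in 1 fit, and 344 were higher and 257 lower at an adjusted p under 0.05. The members called there were 0 under all settings run. The cause of these differences was not tested. With regions counted within 200 kb the members had a median of 15, beside 6 within 100 kb.

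Leaving out 1 library at a time gave 994 to 1139 genes higher and 383 to 485 lower with T3, 2 to 3 members and 4 to 5 family genes higher, and 0 to 1 members and 0 to 2 family genes lower. In L-NCOR1ΔID mice it gave 36 to 110 genes higher and 28 to 77 lower. There were 102 alternatives with all libraries. The log2 fold changes of the members kept within 1 SD in 94, moved in 8 and reversed a call in 0. The replicate block and the fit of all 12 libraries cannot change these values, and the choice of transcript bears only on Slc22a18. Agreement under these settings is therefore no check. All 132 values with 1 library left out kept within 1 SD. In groups of 4 this could not be otherwise, so it does not show that the values are stable. Uncalled values changed sign in L-NCOR1ΔID mice for Slc22a23 (-0.22 to 0.07) and Slc22a26 (-0.63 to 0.59). Whether replicate numbers pair the mice is not given in the sources used here, and the correlations that follow cannot settle it. Deviations from the group means correlated between equal numbers at 0.06, -0.08, 0.08 and -0.02 with T3 and at 0.27, -0.21, 0.15 and -0.19 in L-NCOR1ΔID mice, and not every library went best with its own number. The table holds no counts, so that values near 0.1 RPKM, those of Slc22a26, Slc22a27 and Slc22a29, carry no counting interval.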
